A study of Mus musculus with 8 samples.

Results

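Aqp3, Emp1, Matk, Tbc1d2, Tmem86a, Pou4f1 and Lyl1 were among the genes with the deepest falls in messenger RNA after mouse dendritic cells met CpG. The cells were bone marrow-derived dendritic cells (BMDCs) of C57BL/6 mice, grown with the growth factor GM-CSF at 20 ng/ml and the cytokine IL-4 at 10 ng/ml. CpG is an unmethylated DNA oligonucleotide, here ODN 1668 at 0.1 µM. The libraries were of 2 genotypes, IFNAR;RelB-DBDB and RelB-DBDB. IFNAR;RelB-DBDB cells carry the RelB-DBDB genotype and, per the series description, also lack the type I interferon receptor IFNAR. All libraries thus carry RelB-DBDB, whose name refers to RelB, a subunit of NF-κB, and the labels give neither the age of the mice nor whether cultures were pooled. There were 8 libraries in all, 1 per genotype from control cells (labelled 1 h) and 1 per genotype from cells given CpG for 1, 3 or 8 h. Controls for the later times were not analysed here, so longer culture and CpG cannot be told apart at 3 and 8 h.

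The 7 genes were picked by name from 25017 rows with a gene name, and all 7 were among the 12297 genes tested (at least 1 CPM in at least 2 libraries, CPM being reads scaled to a common library total). They were picked on their changes at 3 h and 8 h over both genotypes, so those changes are a description and are not tested here. The change of each gene is the log2 change of CPM + 1 from an additive limma fit of genotype and condition. At 3 h the order among genes called lower was Klf4 (-3.35), Ier5l (-2.63), Tbc1d2 (-2.49), Tmem86a (-2.48), Pou4f1 (-2.43) and Lyl1 (-2.40), and the next gene, Snx30, was at -2.35. At 8 h the order was Aqp3 (-4.26), Cyp2s1 (-3.88), Clec10a (-3.78), Emp1 (-3.61) and Matk (-3.58), and the next gene, Ltb4r1, was at -3.57. Lyl1 and Snx30, and likewise Matk and Ltb4r1, thus differed by less than their standard errors of 0.17 to 0.51. Klf4, Ier5l, Cyp2s1 and Clec10a fell more deeply than some of the 7 but are not among them.

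CpG DNA is sensed by the endosomal receptor TLR9, which signals through MyD88 to NF-κB and MAP kinases. Dendritic cells then mature: they make cytokines, stop sampling fluid and debris, and lose transcripts typical of the resting, IL-4-cultured state while gaining those of antigen presentation and migration. How fast a transcript disappears depends on how fast its synthesis stops and how fast the existing RNA decays, and RNA-seq measures only the amount present.

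Library totals ran from 3711818 reads (IFNAR;RelB-DBDB at 8 h) to 37221530 reads (RelB-DBDB at 8 h). The RelB-DBDB 8 h library stood apart in its mitochondrially encoded reads, 6.26% against 1.74% to 2.41% in the other 7. The 12 dendritic cell markers were all detected, at a summed 13875 to 15517 CPM in IFNAR;RelB-DBDB libraries and 8674 to 14183 CPM in RelB-DBDB libraries, with the lowest sum in RelB-DBDB cells at 8 h. In bulk RNA, fewer cells of a type and less RNA per cell cannot be told apart.

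The bases before the start site are shown for 3 genes to give the setting of falls of both timings: Aqp3 and Matk, which were lowest at 8 h, and Tmem86a, which was lowest at 3 h. The bases shown for Aqp3 and Matk lie wholly before the gene in RefSeq and GENCODE. For Tmem86a, taken as the example of an early fall, only the bases before the gene in both are shown. Sequences are 5′ to 3′ on the gene's strand, from RefSeq on GRCm38.p6 (mm10). Capitals mark letters matching a κB site (GGG and CC with 5 unspecified bases between), a PU.1 site (GAGGAA) or a TATA box (TATAAA) on either strand.
Aqp3, chr4:41098184-41098433, minus strand: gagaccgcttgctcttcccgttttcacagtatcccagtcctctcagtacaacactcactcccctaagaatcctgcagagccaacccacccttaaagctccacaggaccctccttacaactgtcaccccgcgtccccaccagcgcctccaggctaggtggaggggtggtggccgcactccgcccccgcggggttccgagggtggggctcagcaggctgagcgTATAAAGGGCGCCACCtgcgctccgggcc
Matk, chr10:81252685-81252934, plus strand: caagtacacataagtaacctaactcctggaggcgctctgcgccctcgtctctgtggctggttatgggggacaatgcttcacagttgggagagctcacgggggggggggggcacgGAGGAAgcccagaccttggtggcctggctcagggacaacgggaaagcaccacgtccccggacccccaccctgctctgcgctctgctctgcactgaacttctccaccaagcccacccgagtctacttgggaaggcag
Tmem86a, chr7:47050390-47050600, plus strand: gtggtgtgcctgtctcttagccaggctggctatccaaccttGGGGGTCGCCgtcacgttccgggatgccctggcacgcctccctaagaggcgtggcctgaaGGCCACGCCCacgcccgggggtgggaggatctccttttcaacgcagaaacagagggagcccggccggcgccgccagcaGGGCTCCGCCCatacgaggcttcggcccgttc
In Aqp3 the capitals are a TATA box running into a κB match, in Matk 1 PU.1 match, and in Tmem86a 3 runs of κB letters, the last holding 2 overlapping matches.

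Tmem86a encodes a multi-pass membrane protein with lysoplasmalogenase activity, which breaks down ether lipids. It lies at chr7:47050601-47054777 on the plus strand. IFNAR;RelB-DBDB cells had 46.8 CPM in control, 29.0 at 1 h, 6.55 at 3 h and 10.5 at 8 h. RelB-DBDB cells had 33.3 CPM in control, 25.6 at 1 h, 5.93 at 3 h and 9.46 at 8 h. It was already below control at 1 h, and in both genotypes its lowest library was the 3 h one. At 1 h it stood at 62.1% of control in IFNAR;RelB-DBDB cells (95% interval 54.1% to 71.2%) and at 77.1% in RelB-DBDB cells (63.4% to 93.2%). These are exact intervals of a ratio of 2 Poisson counts, which cover counting error only, since each value is a single library. The level at 8 h was 160% of that at 3 h in both genotypes, with an interval of 119% to 218% in RelB-DBDB cells and of 99.3% to 259% in IFNAR;RelB-DBDB cells. Its additive changes were -0.52 ± 0.19 at 1 h, -2.48 ± 0.19 at 3 h and -1.88 ± 0.19 at 8 h (log2 ± SE, 8 libraries).

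Lyl1 encodes a basic helix-loop-helix transcription factor of blood stem and progenitor cells, a relative of Tal1 that works with Lmo2 and Ldb1. It lies at chr8:84701457-84704715 on the plus strand. Lyl1 stood at 39.6 CPM in IFNAR;RelB-DBDB control cells, 28.5 at 1 h, 8.38 at 3 h and 8.89 at 8 h. The RelB-DBDB cells had 34.2 CPM in control, 28.7 at 1 h, 4.45 at 3 h and 3.76 at 8 h. The 1 h level was 72.1% of control in IFNAR;RelB-DBDB cells (62.5% to 83.1%) and 83.9% in RelB-DBDB cells (69.7% to 101%), so only the interval of IFNAR;RelB-DBDB cells lies below 100%. From 3 h on the gene was flat within counting error, at 106% of its 3 h level by 8 h in IFNAR;RelB-DBDB cells (65.8% to 170%) and at 84.6% in RelB-DBDB cells (59.0% to 124%). Of control, 22.5% was left at 8 h in IFNAR;RelB-DBDB cells (15.3% to 32.0%), against 11.0% in RelB-DBDB cells (8.97% to 13.4%). With library totals rescaled by TMM factors these shares were 23.8% and 14.6%. An exon of Nfix overlaps Lyl1 on the opposite strand. The library kit keeps strand, but the use of strand in counting is not given in the sources used here, so their reads cannot be told apart. Nfix had at most 58.9 CPM and changed by -0.50 at 3 h and -0.58 at 8 h on the log2 scale, which passed no test in limma (adjusted p = 0.340 and 0.185).

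Tbc1d2, also called Armus, encodes a TBC-domain protein that switches off the late-endosome GTPase Rab7 and binds active Rac1. It lies at chr4:46604390-46650209 on the minus strand. Levels in IFNAR;RelB-DBDB cells were 71.5 CPM in control, 71.1 at 1 h, 12.4 at 3 h and 13.5 at 8 h. Levels in RelB-DBDB cells were 69.7 CPM in control, 73.7 at 1 h, 11.1 at 3 h and 6.61 at 8 h. Most of the fall came between 1 h and 3 h: the 3 h level was 17.4% of the 1 h level in IFNAR;RelB-DBDB cells (13.4% to 22.3%) and 15.0% in RelB-DBDB cells (11.9% to 18.7%). By 8 h the level was 109% of that at 3 h in IFNAR;RelB-DBDB cells (74.0% to 159%) and 59.8% in RelB-DBDB cells (47.1% to 76.4%).

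Pou4f1, also called Brn3a, encodes a POU-domain transcription factor best known from sensory neurons. It lies at chr14:104461676-104467999 on the minus strand. IFNAR;RelB-DBDB libraries held 12.6 CPM in control, 13.6 at 1 h, 1.09 at 3 h and 2.96 at 8 h. RelB-DBDB libraries held 47.0 CPM in control, 40.3 at 1 h, 9.80 at 3 h and 11.0 at 8 h. The IFNAR;RelB-DBDB library was the lower one in each condition, and in both genotypes the 3 h library was the lowest. The 8 h level was within counting error of the 3 h level. It was 271% of it in IFNAR;RelB-DBDB cells (92.0% to 893%) and 112% in RelB-DBDB cells (88.4% to 143%). At 3 h 8.67% of control was left in IFNAR;RelB-DBDB cells (3.13% to 19.3%, from 6 reads) and 20.9% in RelB-DBDB cells (16.4% to 26.3%). At 8 h the shares left were 23.5% in IFNAR;RelB-DBDB cells (11.5% to 43.3%, from 11 reads) and 23.3% in RelB-DBDB cells (20.4% to 26.7%).

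Aqp3 encodes an aquaglyceroporin, a plasma membrane channel for water, glycerol and hydrogen peroxide. It lies at chr4:41092722-41098183 on the minus strand. In IFNAR;RelB-DBDB cells it had 20.0 CPM in control, 22.2 at 1 h, 6.55 at 3 h and 0 at 8 h, where no read was counted. In RelB-DBDB cells it had 25.8 CPM in control, 29.9 at 1 h, 8.55 at 3 h and 0.537 at 8 h, from 20 reads. The 8 h library was the lowest in both genotypes, and next to nothing was left. A count of 0 in the shallow IFNAR;RelB-DBDB 8 h library allows up to 3 reads (0.808 CPM), so with that floor the level there was at least 24.7-fold lower than in control, counting error of the control library aside. In the RelB-DBDB library at 8 h, 2.08% of control was left (1.25% to 3.28%), a level 48.0-fold lower than in control. The depth of the IFNAR;RelB-DBDB library cannot show whether Aqp3 differed between genotypes at 8 h. At 3 h the shares left were 32.9% in IFNAR;RelB-DBDB cells (22.5% to 46.8%) and 33.2% in RelB-DBDB cells (25.3% to 43.0%).

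Emp1 encodes epithelial membrane protein 1, a tetraspan membrane glycoprotein related to Pmp22. It lies at chr6:135362545-135383173 on the plus strand. In IFNAR;RelB-DBDB cells it had 54.8 CPM in control, 55.6 at 1 h, 24.6 at 3 h and 2.42 at 8 h. In RelB-DBDB cells it had 69.2 CPM in control, 67.4 at 1 h, 37.2 at 3 h and 6.69 at 8 h. At 3 h it kept the largest share of the 7 genes, though within counting error of Matk in IFNAR;RelB-DBDB cells: 44.9% of control was left in IFNAR;RelB-DBDB cells (37.0% to 54.1%) and 53.7% in RelB-DBDB cells (47.0% to 61.2%). The steeper step came later: the 8 h level was 9.86% of the 3 h level in IFNAR;RelB-DBDB cells (4.42% to 19.3%) and 18.0% in RelB-DBDB cells (15.2% to 21.3%). Of control, 4.43% was left at 8 h in IFNAR;RelB-DBDB cells (2.02% to 8.46%, from 9 reads) and 9.66% in RelB-DBDB cells (8.33% to 11.2%).

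Matk encodes a tyrosine kinase of blood cells related to Csk, which phosphorylates the inhibitory tail of Src family kinases. It lies at chr10:81252935-81263365 on the plus strand. In IFNAR;RelB-DBDB cells it had 56.2 CPM in control, 50.8 at 1 h, 25.1 at 3 h and 4.04 at 8 h. In RelB-DBDB cells it had 41.1 CPM in control, 38.3 at 1 h, 16.6 at 3 h and 2.34 at 8 h. The gene followed the late course of Emp1, with 44.7% of control left at 3 h in IFNAR;RelB-DBDB cells (37.0% to 53.8%) and 40.5% in RelB-DBDB cells (33.3% to 49.0%). At 8 h the shares left were 7.19% in IFNAR;RelB-DBDB cells (4.003% to 11.9%, from 15 reads) and 5.69% in RelB-DBDB cells (4.47% to 7.18%).

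**Figure D1:**
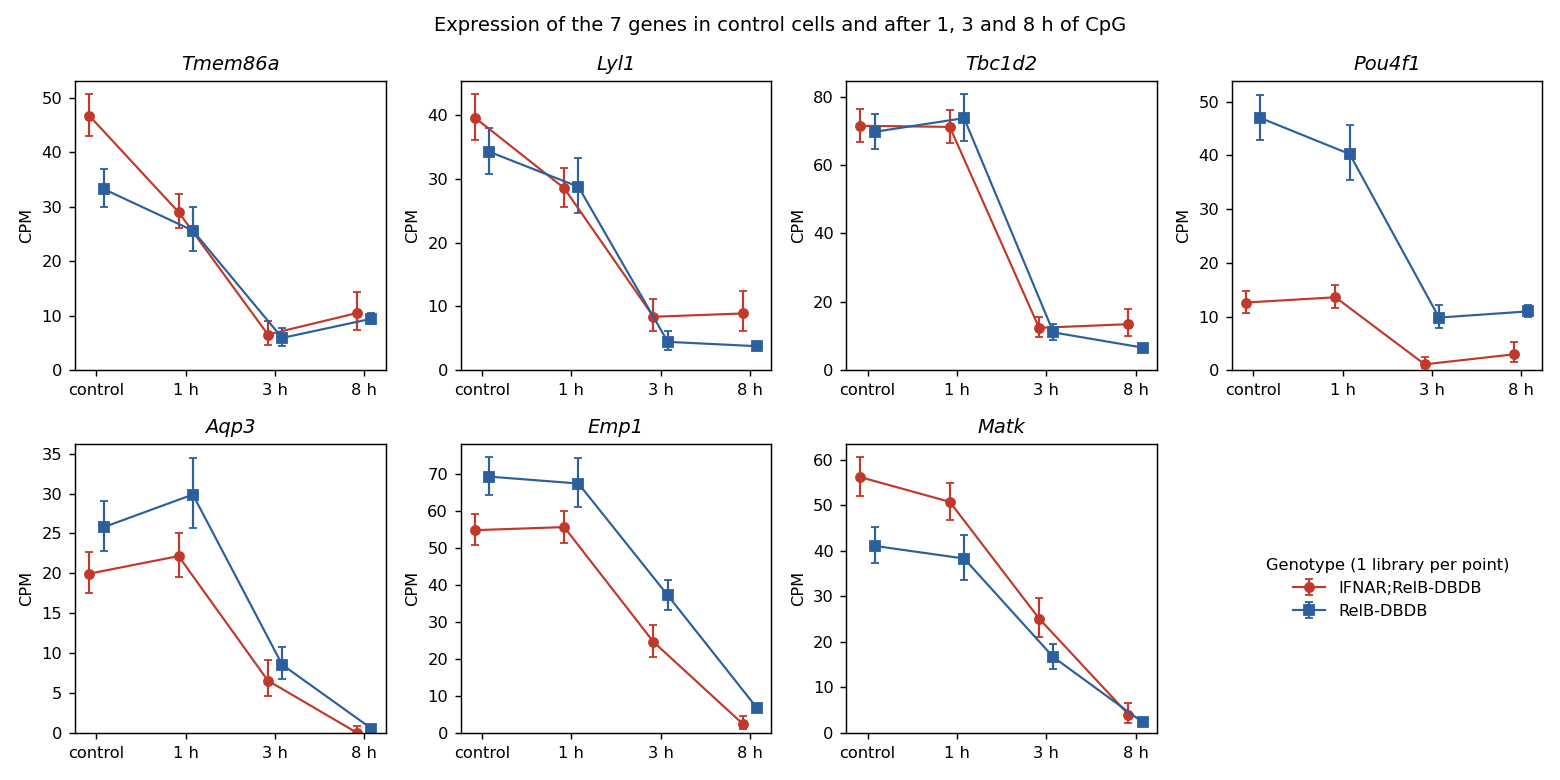
CPM of each gene (y axis, linear and starting at 0) in control cells and after 1, 3 and 8 h of CpG (x axis), in IFNAR;RelB-DBDB (circles) and RelB-DBDB (squares) cells. Each point is 1 library and bars are 95% Poisson intervals, which cover counting error only (3 reads where none was counted). The top row shows the 4 genes chosen on the 3 h change and the bottom row the 3 chosen on the 8 h change; the curves of Pou4f1 lie apart, with 12.6 CPM in IFNAR;RelB-DBDB control cells and 47.0 CPM in RelB-DBDB control cells.

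Side by side, the 7 genes fell in 2 time courses. At 1 h the level was below control beyond counting error in 2 of 7 genes in IFNAR;RelB-DBDB cells (Tmem86a and Lyl1) and in 1 of 7 in RelB-DBDB cells (Tmem86a). The share of all genes below control beyond counting error was not worked out, at 1 h or later. Among genes with 10 CPM or more in control, the 5th percentile at 1 h was 80.7% of control in IFNAR;RelB-DBDB and 79.9% in RelB-DBDB cells. The limma fit called none of the 7 lower at 1 h (adjusted p = 1 for each, additive changes from -0.52 to 0.17), where it called 0 of 12297 genes lower (0%), 8 higher and 177 at an unadjusted p under the threshold of 0.05. Among the 7, Tmem86a alone was below that unadjusted threshold, and limma-voom also called 0 genes lower.

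At 3 h and 8 h each of the 7 genes was below control beyond counting error in both genotypes. The limma fit called 6 of 7 lower at 3 h, Emp1 being the exception, beside 3.87% of all genes, and 7 of 7 at 8 h, beside 15.1%. Since these contrasts chose the genes, nothing is read from those counts. The 3 h calls depended on single libraries. When the 3 h library of RelB-DBDB cells was left out, 0 of 7 genes were called, and 1 of 7 (Tmem86a) when that of IFNAR;RelB-DBDB cells was. Leaving out a control library left 4 of 7 called for IFNAR;RelB-DBDB and 1 of 7 for RelB-DBDB, and a fit with no genotype term called 3 of 7. The calls lost had adjusted p of 0.0539 to 0.262. Emp1 was called at 3 h when either 8 h library was left out, with a pseudocount of 5 and by limma-voom. At 8 h Pou4f1 was not called without the RelB-DBDB control (adjusted p = 0.0607) or with no genotype term (0.231). Tbc1d2, Tmem86a, Pou4f1 and Lyl1 had dropped to 25% of control or less by 3 h in both genotypes, as had 0.37% of genes with 10 CPM or more in control in IFNAR;RelB-DBDB cells and 0.544% in RelB-DBDB cells. By 8 h the same limit was met by 7 of 7 in IFNAR;RelB-DBDB cells (0.97% of such genes) and by 6 of 7 in RelB-DBDB cells (3.95%), where Tmem86a stood at 28.4%. The median gene stood at 91.1% of control at 8 h in IFNAR;RelB-DBDB cells and at 75.0% in RelB-DBDB cells, so the RelB-DBDB 8 h shares sit on a lower base. With TMM scaling the RelB-DBDB 8 h shares of Emp1, Tmem86a and Pou4f1 were 12.9%, 37.8% and 31.1%, and the number of genes at 25% or less there was 5 of 7 with TMM or median-ratio factors. In IFNAR;RelB-DBDB cells it was 7 of 7 with TMM and 6 of 7 with median-ratio factors, where Pou4f1 stood at 25.7%.

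From 3 h to 8 h, Aqp3, Emp1 and Matk went on down beyond counting error in both genotypes, and Tbc1d2 did so in RelB-DBDB cells alone. Tmem86a was the gene whose interval lay above its 3 h level, in RelB-DBDB cells. These steps are of CPM without scaling factors and depend on the scaling of the RelB-DBDB 8 h library. With TMM factors Pou4f1 in RelB-DBDB cells stood at 22.3% of control at 3 h and 31.1% at 8 h. Tmem86a stood there at 19.0% and 37.8%, and Tbc1d2 at 17.0% and 12.6%. Intervals with scaling factors were not worked out. The split into early and late genes follows in part from the choice, since 4 genes came from the 3 h order and 3 from the 8 h order. In the 3 h order of genes called lower, Aqp3 ranked 102 and Matk 189, and in the 8 h order Tbc1d2 ranked 23, Lyl1 50, Pou4f1 163 and Tmem86a 166. Over the 8 libraries the correlation of log2(CPM + 1) between any 2 of the 7 genes ran from 0.409 to 0.988 with a median of 0.755 (21 pairs). These profiles share the same libraries and depths, and the genes were picked for falling.

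**Figure D2:**
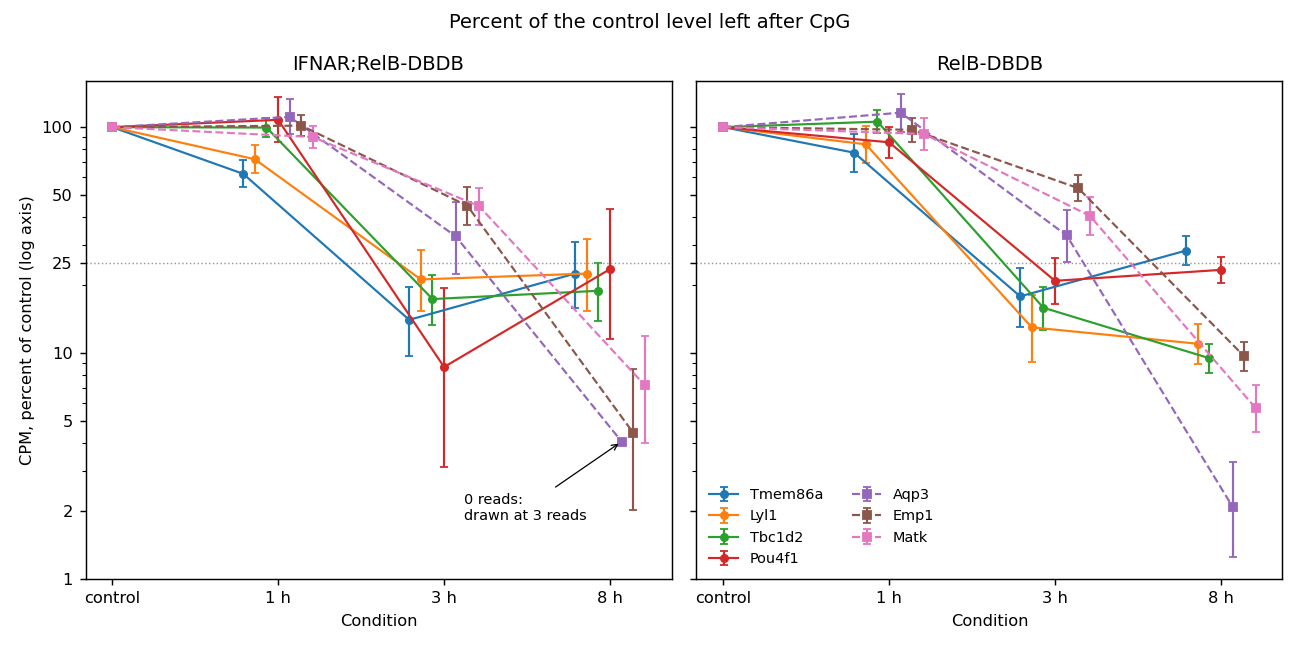
Percent of the control CPM left (y axis, log scale) in control cells and after 1, 3 and 8 h of CpG (x axis), IFNAR;RelB-DBDB on the left and RelB-DBDB on the right. Circles with solid lines are Tmem86a, Lyl1, Tbc1d2 and Pou4f1, squares with dashed lines are Aqp3, Emp1 and Matk, bars are 95% intervals for counting error and the dotted line is 25%. After 3 h the dashed lines keep falling in both genotypes, while Tbc1d2 falls further in RelB-DBDB cells and Tmem86a is above its 3 h level; Aqp3 at 8 h in IFNAR;RelB-DBDB cells is drawn at the 3 reads that a count of 0 allows, 4.05%.

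**Figure D3:**
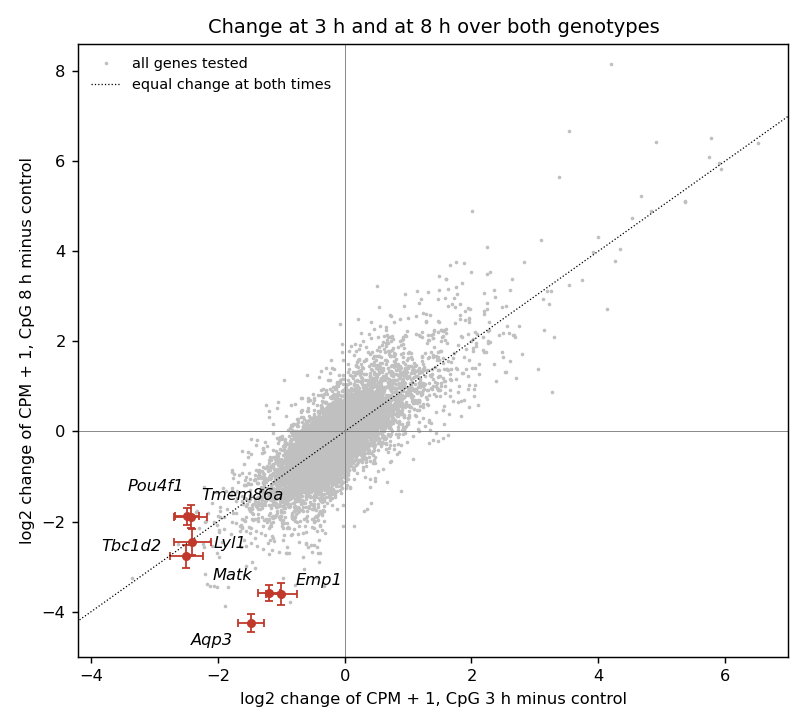
Log2 change of CPM + 1 at 3 h (x axis) and at 8 h (y axis) against control for the 12297 genes tested (grey) and the 7 genes described (red, bars are ± SE), from the additive fit over both genotypes. Aqp3, Emp1 and Matk lie far below the dotted line of equal change, Lyl1 and Tbc1d2 near it, and Tmem86a and Pou4f1 above it.

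The difference between genotypes did not itself enter the choice of genes and was tested. Its standard error rests on the same residual as the changes at 3 h and 8 h. Genes with a large residual were less likely to be chosen, so small errors and p-values here are partly set by the choice. In the additive fit Pou4f1 was lower in IFNAR;RelB-DBDB than in RelB-DBDB cells by a log2 difference of -1.82 ± 0.18 (limma adjusted p = 0.00317), and it was lower in 4 of 4 conditions. It was called whichever library was left out, with differences of -1.93 to -1.64 and adjusted p from 0.000386 to 0.0375. Its level in IFNAR;RelB-DBDB cells was 26.8% of that in RelB-DBDB cells in control (22.2% to 32.3%), 33.7% at 1 h (27.5% to 41.3%), 11.1% at 3 h (3.98% to 25.3%) and 27.0% at 8 h (13.4% to 48.9%). The gap was present in unstimulated cells. The 4 conditions stand in as replicates of a genotype. A difference shared by all cultures of a genotype, or by their mice, thus cannot be told apart from genotype, whichever library is left out. Pou4f1 was 1 of 7 genes called, beside 6.25% of all genes (204 lower and 565 higher).

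The other 6 genes were not called between genotypes. Matk was higher in IFNAR;RelB-DBDB cells in 4 of 4 conditions, by 0.50 ± 0.12 (adjusted p = 0.0610), and Emp1 lower in 4 of 4, by -0.59 ± 0.17 (adjusted p = 0.102). Without either 8 h library both were called, Emp1 at -0.39 (adjusted p = 0.0237 without the IFNAR;RelB-DBDB and 0.0260 without the RelB-DBDB library) and Matk at 0.47 (0.0128 and 0.0119). Over all 8 omissions their adjusted p ran from 0.0237 to 0.281 for Emp1 and from 0.0119 to 0.255 for Matk. Aqp3 (-0.43 ± 0.14), Lyl1 (0.51 ± 0.20), Tbc1d2 (0.27 ± 0.18) and Tmem86a (0.23 ± 0.13) had adjusted p of 0.136 to 0.421.

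The cultures also differed in markers of other cell types. Over all genes tested, 6.25% were called between genotypes, 565 higher and 204 lower in IFNAR;RelB-DBDB cells. In IFNAR;RelB-DBDB libraries the mast cell and basophil markers summed to 31.3 to 47.1 CPM, against 9.73 to 24.5 CPM in RelB-DBDB libraries, and 6 of 8 tested were called higher, Mcpt8 by 2.06 and Cpa3 by 1.46 on the log2 scale. Lymphocyte markers summed to 44.6 to 56.0 CPM in IFNAR;RelB-DBDB and 12.2 to 14.2 CPM in RelB-DBDB libraries, and 3 of 6 tested were called higher (Trac, Cd3e and Cd3g). Macrophage and monocyte markers summed to 919 to 1620 CPM in IFNAR;RelB-DBDB and 1088 to 1459 CPM in RelB-DBDB libraries. Of 9 tested, 1 was called lower in IFNAR;RelB-DBDB cells, Mertk, a receptor for dying cells (-2.11 ± 0.17, limma adjusted p = 0.0016), and 2 were called higher, the monocyte marker Ly6c2 (0.97 ± 0.21) and the complement gene C1qb (0.97 ± 0.11). Stromal markers summed to 5.39 to 6.74 CPM in IFNAR;RelB-DBDB and 1.61 to 2.39 CPM in RelB-DBDB libraries, with Lum at 0 throughout, and 2 of 3 tested were called higher (Col1a1 and Col1a2). Eosinophil markers summed to 69.8 to 244 CPM in IFNAR;RelB-DBDB and 117 to 225 CPM in RelB-DBDB libraries, lowest at 8 h in both, and 3 of 4 tested were called higher in IFNAR;RelB-DBDB cells, Prg2 (1.80 ± 0.20), Ccr3 and Epx. Neutrophil markers summed to 175 to 230 CPM in IFNAR;RelB-DBDB and 121 to 217 CPM in RelB-DBDB libraries, with 1 of 7 tested called higher (Mpo). Erythroid markers, with Hba-a1 and Hba-a2 at 0 in every library, summed to 3.74 to 5.10 CPM in IFNAR;RelB-DBDB and 0.457 to 2.76 CPM in RelB-DBDB libraries. Their part in the difference was not tested.

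**Figure D4:**
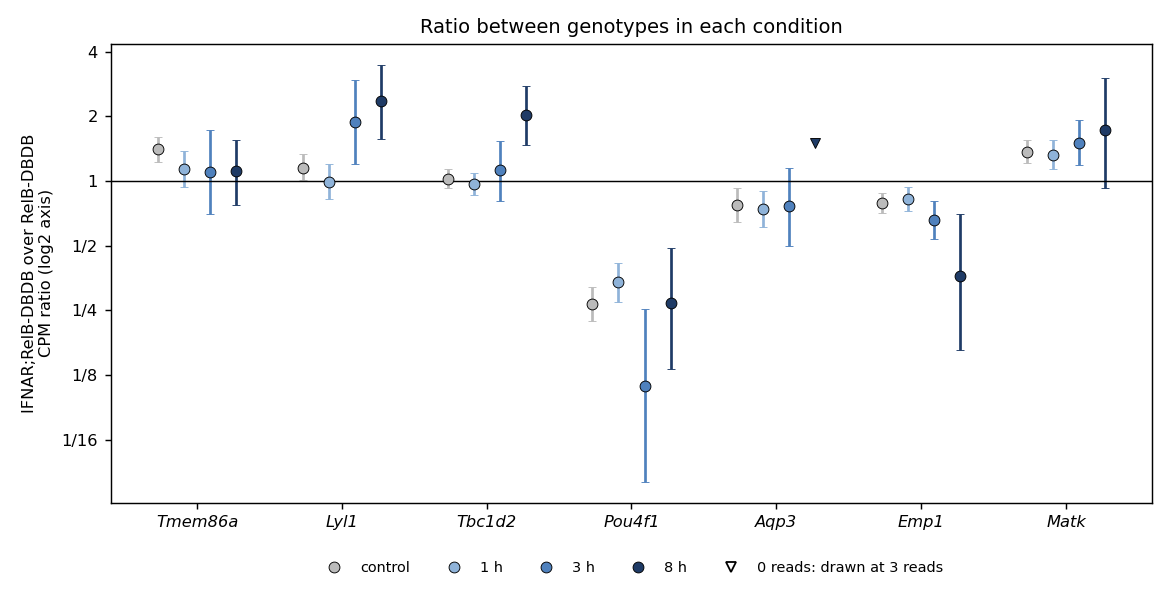
Ratio of CPM in IFNAR;RelB-DBDB to RelB-DBDB cells (y axis, log2 scale) for each gene (x axis) in control cells and after 1, 3 and 8 h of CpG, each from 2 single libraries with a 95% interval for counting error. All 4 values of Pou4f1 lie below 1/2, the 3 h and 8 h values of Lyl1 lie above 1, and the triangle is Aqp3 at 8 h, where IFNAR;RelB-DBDB cells had 0 reads, drawn at 3 reads.

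Whether the fall itself differed between genotypes was asked with an interaction term, the genotype difference at 3 and 8 h minus that in control and at 1 h. None of the 7 genes was called, nor was any of the 12297 genes (0%; limma's smallest adjusted p was 0.201, 874 genes had an unadjusted p below 0.05, and limma-voom called 0). Lyl1 had the largest value, 0.82 ± 0.28 (limma adjusted p = 0.639), followed by Emp1 at -0.57 ± 0.29 and Tbc1d2 at 0.55 ± 0.32 (limma adjusted p = 0.639 for each). Pou4f1 (-0.32 ± 0.36), Tmem86a (-0.19 ± 0.27), Matk (0.16 ± 0.25) and Aqp3 (-0.09 ± 0.30) had smaller values. Genes with a large residual in the additive fit were less likely to be chosen, so small values here are partly set by the choice.

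The single libraries show where these values come from. Lyl1 in IFNAR;RelB-DBDB cells was at 188% of its RelB-DBDB level at 3 h (120% to 296%) and at 236% at 8 h (157% to 347%), with 116% in control and 99.3% at 1 h. Tbc1d2 was at 204% at 8 h (147% to 277%), with 103% in control, 96.5% at 1 h and 112% at 3 h. Emp1 was at 36.2% at 8 h (16.4% to 69.9%), with 79.1% in control, 82.5% at 1 h and 66.2% at 3 h. Without either 3 h library the interaction of Lyl1 (0.96), Tbc1d2 (0.93) and Emp1 (-0.86) was called, but so were 5646 genes without the IFNAR;RelB-DBDB and 5644 without the RelB-DBDB library. The ratios are of CPM without scaling factors. Among genes with 10 CPM or more in control, the 8 h median was 91.1% of control in IFNAR;RelB-DBDB cells and 75.0% in RelB-DBDB cells. With TMM factors the interaction was 0.72 for Lyl1, 0.43 for Tbc1d2 and -0.69 for Emp1. The 8 h libraries are also the shallowest (IFNAR;RelB-DBDB) and the one with the most mitochondrial reads (RelB-DBDB), and the part of either in these values was not tested.

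Several of the 7 genes are best known outside dendritic cells, and markers of those tissues were read in the same libraries. Of 7 epithelial markers, Krt5, Krt14, Krt8 and Krt19 were at 0 in every library. The list summed to 48.2 to 163 CPM in IFNAR;RelB-DBDB and 57.7 to 206 CPM in RelB-DBDB libraries, nearly all of it Cdh1. Cdh1, the adhesion protein E-cadherin, which IL-4-cultured dendritic cells also make, fell after CpG by -1.39 ± 0.16 at 3 h and -1.67 ± 0.16 at 8 h (limma adjusted p = 0.00473 and 0.00109), and Epcam fell at 8 h by -1.58 ± 0.32 (0.0164). Of 7 neuron markers, Isl1 and Snap25 were at 0 in every library and the list summed to 1.82 to 6.62 CPM in IFNAR;RelB-DBDB and 1.91 to 7.31 CPM in RelB-DBDB libraries. Tubb3, a tubulin that is not limited to neurons, fell by -1.13 ± 0.24 at 3 h and -1.89 ± 0.24 at 8 h (0.0359 and 0.00349). Blood progenitor markers summed to 43.3 to 55.7 CPM in IFNAR;RelB-DBDB and 53.4 to 75.0 CPM in RelB-DBDB libraries, and 1 of 3 tested (Meis1) was called lower at 3 h. Over all genes tested, limma called 3.87% lower at 3 h and 15.1% at 8 h. Among those at 8 h were 2 of 4 eosinophil markers (Prg2 and Ear2) and 3 of 7 neutrophil markers (S100a9, Ngp and Ltf). The part of these cells in the falls was not tested.

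A few partners of Lyl1 were called lower too. Of 21 other blood basic helix-loop-helix factors and partners tested, limma called 3 at 3 h, all lower: Lmo2, the bridging LIM protein of the Tal1 and Lyl1 complex (-1.57 ± 0.24, adjusted p = 0.0128), its binding protein Ldb1 (-1.001 ± 0.15) and the homeobox factor Meis1 (-1.23 ± 0.19). At 8 h 6 fell, namely Id3 (-2.46 ± 0.47, adjusted p = 0.0142), Lmo1, Gfi1b, Lmo2, Ldb1 and Tcf3, and 2 rose, Tcf4 (0.97 ± 0.22) and Id2 (0.55 ± 0.12). The median change over the list was -0.16 at 3 h and -0.27 at 8 h, beside -0.16 and -0.23 over all genes tested, of which 3.87% and 15.1% were called lower.

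The kinases around Matk moved in both directions. Of 11 other Csk and Src family kinases and regulators tested, 3 fell at 3 h, Csk (-0.84 ± 0.14, limma adjusted p = 0.018), Fyn (-0.74 ± 0.14) and the Csk-binding adaptor Pag1 (-0.76 ± 0.18). Among those that rose were the myeloid Src kinase Fgr (1.46 ± 0.14) and its relative Yes1 (1.80 ± 0.23). At 8 h Fyn and Pag1 were called lower and, among others, Yes1 (1.01 ± 0.23), Fgr (0.97 ± 0.14) and Src (0.82 ± 0.22) higher, while Csk had -0.37 ± 0.14 (adjusted p = 0.105). The median over the list was 0.33 at 3 h and 0.53 at 8 h. The 3 of 11 called lower at 3 h and 2 of 11 at 8 h stand beside 3.87% and 15.1% of all genes tested.

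Among 28 other TBC-domain proteins and Rab7 partners, Tbc1d16 was the one that fell at 3 h (-1.55 ± 0.33, limma adjusted p = 0.037) and went to -2.98 ± 0.33 at 8 h, when Tbc1d17 (-0.91 ± 0.22) and Tbc1d20 (-0.90 ± 0.24) were also lower. Tbc1d1 rose by 1.17 ± 0.13 at 3 h and 0.88 ± 0.13 at 8 h, and Mon1b, part of the exchange factor that activates Rab7, by 1.06 ± 0.16 and 1.097 ± 0.161. Tbc1d8 rose at 8 h (0.63 ± 0.15). The median over the list was -0.14 at 3 h and -0.12 at 8 h. Called lower were 1 of 28 at 3 h and 3 of 28 at 8 h, beside 3.87% and 15.1% of all genes tested.

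In a list of ether lipid genes and other phospholipid genes drawn up around Tmem86a, 11 other genes were tested. The phospholipase gene Pla2g4a rose at 3 h (0.90 ± 0.20, limma adjusted p = 0.0442) and at 8 h (1.33 ± 0.20), when Lpcat2, which makes platelet-activating factor (0.99 ± 0.18), and Cept1 (0.73 ± 0.17) rose and Plbd1 fell (-0.80 ± 0.20). Plbd1 was 1 of 11 called lower at 8 h, beside 15.1% of all genes tested. The list's median was 0.07 at 3 h and -0.05 at 8 h. The close relative Tmem86b stayed between 1.14 and 2.42 CPM in all 8 libraries. Of 4 other POU-domain factors tested, Pou2f2, the lymphoid and myeloid factor Oct2, rose by 2.20 ± 0.20 at 3 h and 2.61 ± 0.20 at 8 h (adjusted p = 0.00233 and 0.00052), with list medians of -0.04 and -0.16.

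Of 4 other members of the Emp1 family tested, Emp2 fell at 8 h (-1.38 ± 0.22, limma adjusted p = 0.00766), with list medians of 0.06 at 3 h and -0.50 at 8 h. Emp2 was 1 of 4 called lower at 8 h, beside 15.1% of all genes tested. Pmp22, of the same family, differed between genotypes in the direction of Pou4f1, at -1.74 ± 0.22 (limma adjusted p = 0.00612). The 1 other aquaporin tested was Aqp9, a glycerol and lactate channel. In IFNAR;RelB-DBDB cells it had 48.8 CPM in control, 55.4 at 1 h, 38.1 at 3 h and 40.7 at 8 h, and in RelB-DBDB cells 68.5, 70.3, 38.0 and 19.9 CPM, with a change of -0.996 ± 0.337 at 8 h (adjusted p = 0.0735).

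The nearest tested gene on each side of each of the 7, by lowest coordinate whatever the strand, was also read. The lowest coordinates of these 14 genes lay 1581 to 1143622 bp from that of their neighbour. At 3 h limma called 1 of them, Ednrb, which was higher. At 8 h 4 of the 14 were called lower, beside 15.1% of all genes tested. They were Hebp1 beside Emp1 (-1.99), Coro2a beside Tbc1d2 (-0.62), Ptpn5 beside Tmem86a (-1.07) and G430095P16Rik beside Lyl1 (-1.31). Over the libraries Hebp1 had 1.10 to 10.7 CPM, Ptpn5 0.564 to 4.67 CPM and G430095P16Rik 0.188 to 3.01 CPM. Ednrb, an endothelin receptor gene beside Pou4f1, rose by 1.86 at 3 h and 2.09 at 8 h (adjusted p = 0.0312 and 0.0112). The neighbours' median change was -0.48 at 3 h and -0.31 at 8 h, beside -0.16 and -0.23 over all genes tested.

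Among the 10 genes whose profile was most like the mean of the 7 standardised profiles, by Pearson's r over the 8 libraries among 1209 genes spanning 2 or more log2 units, were Zcchc24 (0.991), Slc9a3r2 (0.991), Tubb3, Sh3tc1, Tmem151a, Kif19a, Lgi4, Havcr2 and Cdh1 (0.979). By Spearman's rho, 1 of the 10 stayed among the nearest 10.

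Single genes had other nearest profiles. Lyl1 lay nearest Klf2 (r = 0.989), a transcription factor of quiescent leukocytes, and Sbk1. Klf2 had 79.0, 45.6, 16.9 and 16.4 CPM over control, 1, 3 and 8 h in IFNAR;RelB-DBDB cells, and 55.2, 39.4, 10.4 and 7.17 CPM in RelB-DBDB cells. Aqp3 lay nearest Scd1, the stearoyl-CoA desaturase (0.994), and Selenbp1, Emp1 nearest 1700026L06Rik (0.990) and Selenbp1, and Matk nearest Tbxas1, thromboxane synthase (0.999), and Naaa. Tbc1d2 lay nearest 6430548M08Rik (0.991) and P2ry1, and Tmem86a nearest Lpar5 (0.968) and Ndnf. Pou4f1 lay nearest Fblim1 (0.982) and Rassf8, and Rassf8 was likewise lower in IFNAR;RelB-DBDB cells, with 30.7 CPM in IFNAR;RelB-DBDB control cells and 65.4 CPM in RelB-DBDB control cells.

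Promoter windows of 300 bases (250 before and 50 after the RefSeq start on GRCm38.p6) were found for all 7 genes among 32851 windows. For Emp1 and Matk, which have 2 windows, the first was read. Letters were searched on both strands. The κB letters, in 50.8% of all windows, were in 4 of 7 (Aqp3, Tbc1d2, Tmem86a and Pou4f1). The AP-1 letters TGANTCA, in 7.81% of windows, were in 1 (Emp1), and the PU.1 letters GAGGAA, in 28.3%, were in 3 (Tbc1d2, Lyl1 and Matk). The RUNX letters TGTGGT (16.8%) were in 2 (Emp1 and Tmem86a), E-box letters CANNTG (72.3%) in 6, CACCC letters of KLF and SP1 factors (57.5%) in 6 and a TATA box TATAAA (13.6%) in 1 (Aqp3). No window of the 7 held the STAT-type letters (TTC and GAA with 4 unspecified bases between, 6.95%), the octamer ATGCAAAT (1.74%) or the interferon response letters (GAAA and GAAA with 2 unspecified bases between, 3.44%). GC content ran from 46.7% in Emp1 to 78.3% in Pou4f1, with a median of 52.7% over all windows.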

How the data were processed

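Medium was renewed in part on days 3 and 6, and stranded mRNA libraries (1 µg of RNA) were read as 50 bp single ends, per the labels' protocols. The submitters' processing notes name cutadapt, edgeR and the build mm10. Aligner, counter, annotation, versions and any use of strand: not given in the sources used here. The signal values deposited by the authors were found to be CPM plus 1: values minus 1 were whole multiples of 1 read in 100% of cases (tolerance 0.01 read), which gave the reads of each library. Of 27178 rows, 2161 without a gene name (0.0737% to 0.131% of reads) counted toward totals only. Another 16 columns were not used.

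The planned design named a count test if the file held counts. It did not, so log2(CPM + 1) was fitted with limma 3.58.1 (R 4.3.3, eBayes with a trend) over all 12297 genes, with Benjamini-Hochberg adjustment and a threshold of 0.05. This scale understates changes of low genes. The additive fit has 3 residual degrees of freedom and the interaction fit 2. With 1 library per genotype and condition, p-values rest on genotype by condition differences, and nothing in the labels says that libraries came from separate mice. Ratios of single libraries, in Python 3.11.15 with scipy 1.17.1, have exact 95% intervals, and 0 reads allow up to 3. Coordinates are from GENCODE M21 on mm10. Alternatives were other pseudocounts, filters, scalings, limma-voom, no genotype term and leaving out each library. Named genes were the 7, called genes of the lists of related genes and markers, nearest neighbours and profiles, and the largest falls at 3 h and 8 h. A few genes that this rule names are not reported here, and some list genes were named with values though not called. The genes and lists were chosen with earlier results of these data known.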

Additional observations from a re-analysis of the deposited data

How the results depend on the processing

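No paired analysis was possible because each genotype and condition has 1 library, so no replicate numbers pair samples; the additive fit already compares the genotypes within each condition. The edgeR quasi-likelihood test was planned only for a file that holds counts. The deposited values are CPM plus 1, so it was not run, although reads could be worked back and limma-voom was run on them. The number of genes called lower at 3 h, 476, was 196 with no filter and 120 with no genotype term, and 1 (without the RelB-DBDB 3 h library) to 3066 (without the RelB-DBDB 8 h library) when 1 library was left out. At 8 h, 1853 genes were called lower, against 1054 with no filter, 793 with no genotype term, 1192 with TMM factors, 1107 with median-ratio factors, 3227 by limma-voom and 161 (without the RelB-DBDB control) to 5195 (without the IFNAR;RelB-DBDB 8 h library) with 1 library left out. At 1 h the 0 genes became 0 to 3, the 3 without either 8 h library. Between genotypes, 769 genes were called, against 413 with no filter and 128 (without the RelB-DBDB 3 h library) to 2044 (without the RelB-DBDB 8 h library) with 1 library left out. For the interaction 0 became 69 (without the IFNAR;RelB-DBDB control) to 5646 (without the IFNAR;RelB-DBDB 3 h library). Each omission moved these counts by over 1.5 times, except at 1 h and for the RelB-DBDB 8 h library at 8 h (2108). Fits without 1 library leave 1 fewer residual degree of freedom, and a lone library is then taken to vary like the others. The 8 h share of control, as the median over the 7 genes and both genotypes (10.3%), was 13.7% with either TMM or median-ratio factors. The interaction changed sign for Aqp3 (0.14 with a pseudocount of 5, and -0.24 to 0.046 with 1 library left out, being above 0 without either 8 h library) and for Pou4f1 (0.28 with a pseudocount of 5, and -0.71 to 0.066 with 1 library left out, being above 0 without either 3 h library). The cause was not tested. The genotype difference of Pou4f1 was called under every alternative run. Depth limits the IFNAR;RelB-DBDB 8 h library most, where Aqp3, Emp1, Pou4f1 and Matk rest on 0 to 15 reads.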
